A study of Mus musculus with 10 samples.

Results

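Transcripts of 10 genes of the AP-1 and immediate early group (Fos, Fosb, Fosl2, Jun, Junb, Jund, Atf3, Egr1, Nr4a1 and Ier3) were followed in white fat from the epididymal pad of mice, a depot that lies against the epididymis and testis. The genes were taken by symbol: every probe set whose platform annotation names exactly 1 gene, and that gene one of the 10, was included. This gave 13 probe sets for all 10 genes, of 45101 probe sets and 18193 named genes on the array. The samples came from male C57BL/6J mice that were 8 weeks old when the diets began. For 8 weeks, 5 mice were fed a high-fat diet (60% fat) and 5 others were fed normal chow (CRF-1). No transgene or other treatment is given for either group, and RNA of each mouse was put on 1 Affymetrix array after biotin labelling. The whole depot was sampled, so fewer cells of a type and less RNA per cell cannot be told apart.

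AP-1 is a dimer of basic leucine zipper (bZIP) proteins. Fos family members pair with Jun family members, Jun proteins can also pair among themselves, and the dimers bind short DNA sites called TPA response elements. Immediate early genes such as Fos and Egr1 are transcribed within minutes of a growth factor, cytokine, stress or hormone signal, from transcription factors that are already present, and many of their mRNAs decay quickly. Adipocytes and macrophages both use these genes, and Atf3 is known as a stress gene in both.

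The 10 arrays were not alike. The median intensity of an array ran from 17.9 to 27.4, and precision is limited by the number of arrays. Adipoq, the adiponectin gene of adipocytes, averaged a log2 level of 13.15 in the high-fat group and 12.93 in the chow group, and none of 8 adipocyte markers passed the test (limma, 0 higher and 0 lower also at an unadjusted p under 0.05). The label of fat was thus matched by its defining marker on all arrays. Of 10 macrophage markers 9 were higher in the high-fat group, of 8 epithelial markers all 8 were lower, and of 6 smooth muscle markers all 6. Of 11 epididymis and testis markers 5 were lower by limma, and all 11 were at an unadjusted p under 0.05 (median change -3.64). The mean log2 level of the epididymis and testis markers was 4.86 ± 0.42 on the high-fat diet and 8.77 ± 1.87 on chow (SD, n = 5 each). Chow arrays 1 and 2 stood apart from the other chow arrays, with mean log2 levels of epithelial markers of 10.29 each, where the other 3 had 6.75 to 8.34, and with endothelial marker means of 7.06 to 7.82, where the other 3 had 9.43 to 9.78. Adipocyte marker means were also lower on those arrays, at 10.68 to 11.72, where the other 3 had 12.44 to 12.60. In the fit without them, 2 of 8 adipocyte markers and all 8 endothelial markers were lower on the high-fat diet. The epididymis and testis means did not set these arrays apart together. Chow array 1 (7.87) lay among chow arrays 3 to 5 (7.00 to 9.82), and chow array 2 was the highest (11.52). Of 9 lymphocyte markers 3 were higher, and of 7 stromal progenitor markers 3. For the actin control probe sets, the ratio of 5′ signal to 3′ signal, which reflects RNA integrity and labelling, was 0.614 ± 0.0380 on the high-fat diet and 0.341 ± 0.0731 on chow (SD, n = 5 each; 2-sided exact permutation p = 0.00794, the smallest possible). For the Gapdh control it was 1.05 ± 0.0265 on the high-fat diet and 0.726 ± 0.123 on chow, with the same exact permutation p (0.00794, also after adjustment over both controls). These differences run with the diet groups, and their part in the changes below was not tested.

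Of the 10 genes, 4 differed between the diets, and they went both ways. Fos and Atf3 were higher and Nr4a1 and Ier3 were lower on the high-fat diet, while Fosb, Fosl2, Jun, Junb, Jund and Egr1 did not pass the test. Fos was 7.93-fold and Atf3 12.1-fold higher, and Nr4a1 was 2.81-fold and Ier3 3.31-fold lower. The test was limma with Benjamini-Hochberg adjustment over all 18193 genes and an adjusted p threshold of 0.05. Over the whole array 25.9% of genes passed, 12.9% higher and 13.1% lower, and 40% of the 10 genes did, which for so few genes is close to the background. In the same 4 genes the groups did not overlap, as was so for 22.5% of all genes. The median change of the 10 genes was 0.0051 on the log2 scale, beside -0.04 for all genes. Without chow arrays 1 and 2 the same 4 genes passed in the same directions, where 38.3% of all genes did (18.5% higher and 19.8% lower). Scaling changed the balance of the array as a whole: 49.6% of the genes past the threshold were higher here, 64.8% without any scaling and 75.4% with array medians set equal. That last scaling put the median of all changes at 0.21, and changes on it are read relative to that shift.

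**Figure D1:**
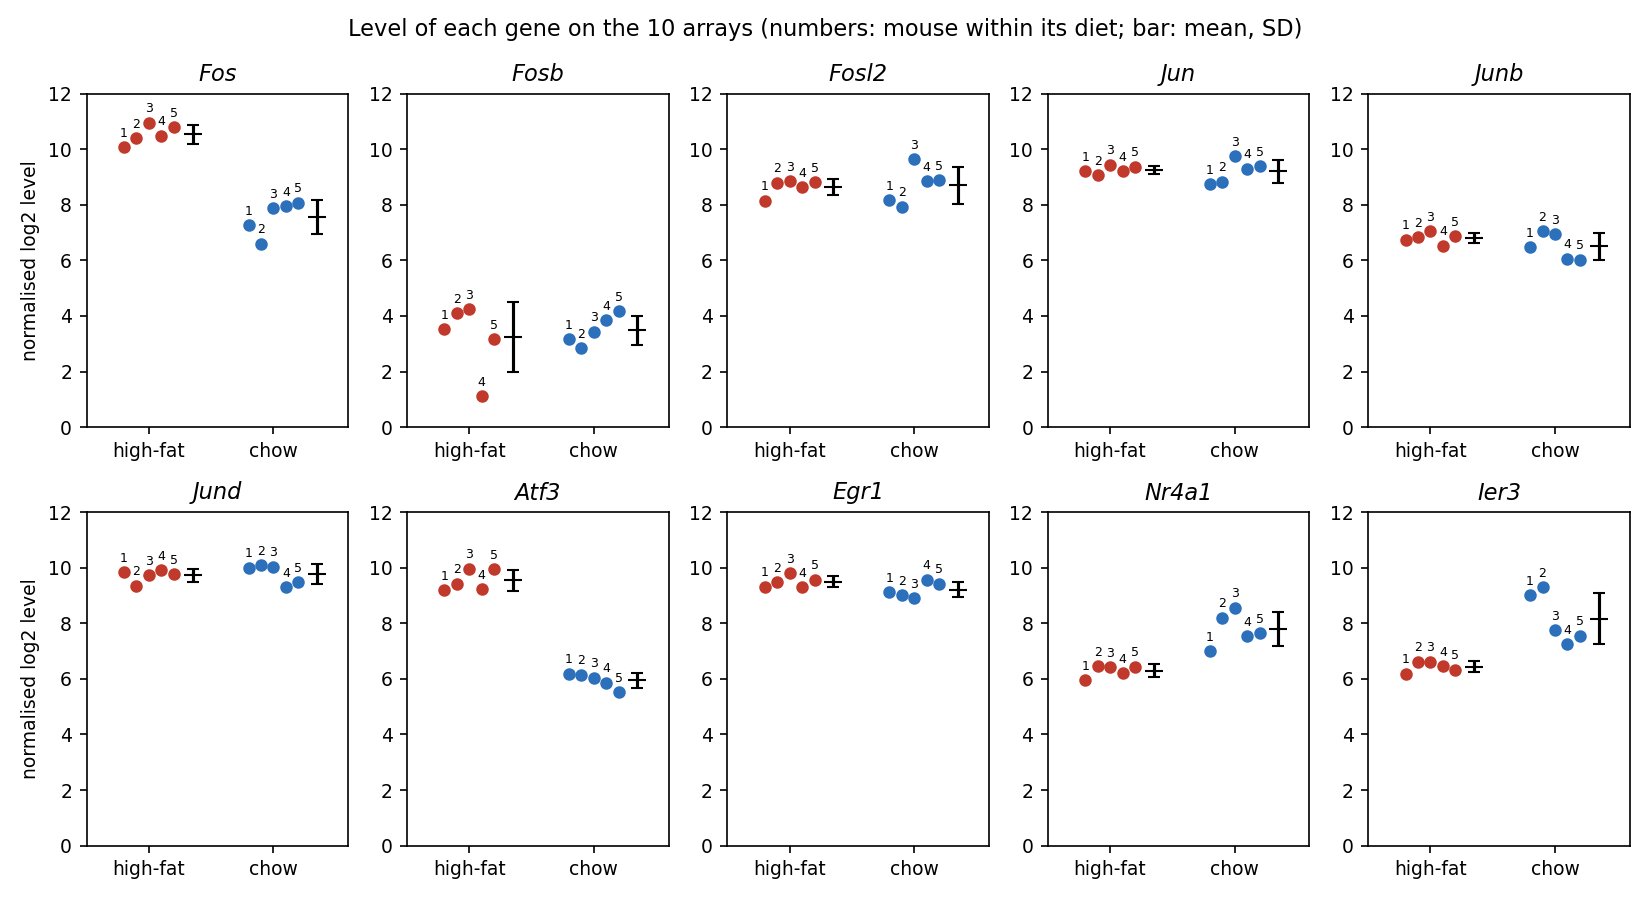
Normalised log2 level of each of the 10 genes (vertical axis) on the 5 high-fat arrays (left, red) and the 5 chow arrays (right, blue), with the mouse number above each point and the mean ± SD beside each group. The lowest high-fat array lies above the highest chow array for Fos (10.07 and 8.07) and Atf3 (9.18 and 6.18), the highest high-fat array lies below the lowest chow array for Nr4a1 (6.46 and 6.99) and Ier3 (6.62 and 7.24), and the other 6 genes overlap.

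The DNA just upstream of the annotated starts is shown for the 4 genes that moved and for Jun, the partner of Fos that did not pass the test, so that the letters at these starts can be compared. Each line gives the 120 bases before the RefSeq start on GRCm38.p6, 5′ to 3′ on the strand of the gene. Capitals mark letters that match a searched motif on either strand.
Fos, chr12:85473770-85473889, forward strand: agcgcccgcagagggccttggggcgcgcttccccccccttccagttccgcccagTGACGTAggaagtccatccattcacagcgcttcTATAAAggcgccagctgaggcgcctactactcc
Atf3, chr1:191183334-191183453, reverse strand: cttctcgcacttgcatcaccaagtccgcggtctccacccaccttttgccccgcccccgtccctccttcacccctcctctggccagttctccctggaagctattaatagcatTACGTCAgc
Nr4a1, chr15:101266726-101266845, forward strand: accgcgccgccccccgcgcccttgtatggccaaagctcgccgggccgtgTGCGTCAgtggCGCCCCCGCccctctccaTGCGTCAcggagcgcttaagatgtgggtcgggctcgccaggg
Ier3, chr17:35821593-35821712, forward strand: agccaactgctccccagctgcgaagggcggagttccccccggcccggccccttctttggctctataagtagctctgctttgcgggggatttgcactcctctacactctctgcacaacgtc
Jun, chr4:95052223-95052342, reverse strand: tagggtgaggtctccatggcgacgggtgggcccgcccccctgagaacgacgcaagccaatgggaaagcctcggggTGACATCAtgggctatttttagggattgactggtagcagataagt
RefSeq windows from 250 bases before to 50 bases after the start were searched for 7 motifs. They were at hand for 9 of the 10 genes, all but Egr1, so nothing is said here of its motifs. TGACGNA, a shortened variant of the cAMP response element of CREB and ATF proteins, was found in Fos, Fosb, Atf3 and Nr4a1, against 5.36% of 32851 windows of all genes. The full element does not match this form, so these are not counts of cAMP response elements. This form was chosen after the windows had been read. In Fos it lay at -66 to -60, and in Atf3 at -9 to -3, next to the start. Nr4a1 had 4 copies, at -235 to -229, -215 to -209, -71 to -65 and -42 to -36. Jun alone had TGACNTCA, at -45 to -38, a form that takes in the full cAMP response element and the Jun-binding variant printed above (8.83% of all windows). The zinc finger site of Egr proteins, searched as GCGNGGGCG, was in Fosb, Fosl2 and Nr4a1 (5.55% of all windows). TATAAA was in Fos at -33 to -28 and in Junb at 1 to 6, after the start (13.6%). No window of the 9 held TGANTCA, the TPA response element (7.81% of all windows), AAAGGTCA, the site of Nr4a monomers (1.51%), or a CArG box, the site of serum response factor (1.63%). The matches do not overlap one another, a match is not a site that was measured, and a motif without a match may lie outside the window. Genes that rose (Fos, Atf3), fell (Nr4a1) or did not pass (Fosb) all carried TGACGNA. Ier3, which fell, and Jund, which did not pass, carried none of the 7 motifs.

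Among the 3 Fos family genes, Fos was the sole gene past the threshold. Fos encodes the inducible partner of Jun in classical AP-1. Its deposited intensity was 1210, 1490, 2695, 1367 and 2053 on high-fat arrays 1 to 5, against 143, 96.4, 211, 263 and 211 on chow arrays 1 to 5. The lowest high-fat array was well above the highest chow array, and chow array 2 was the lowest of all. After normalisation Fos had log2 levels of 10.54 ± 0.34 on the high-fat diet and 7.55 ± 0.62 on chow (SD, n = 5 each). It rose by 2.99 on the log2 scale (SE 0.28, 95% interval 2.37 to 3.61, limma adjusted p = 4.63e-05), the 236th largest rise of the 18193 genes. A fit with the mean level of those epididymis and testis markers as a covariate was chosen with the data known. In it the rise of Fos was 1.96 (SE 0.40, limma adjusted p = 0.0236, the largest over its 24 alternatives). That mean did not overlap between the diets (4.31 to 5.34 on the high-fat diet, 7.00 to 11.52 on chow). The fit therefore separates it poorly from the diet, and the SE grew.

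Fosl2, which encodes Fra-2 and is known in fat as a regulator of leptin expression, did not pass the test. On the high-fat arrays its log2 level was 8.15, 8.79, 8.85, 8.62 and 8.81, against 8.17, 7.93, 9.64, 8.85 and 8.88 on the chow arrays. Chow array 3 was the highest and chow array 2 the lowest, with the whole high-fat group between them. The difference was -0.05 (SE 0.29, 95% interval -0.69 to 0.59, limma adjusted p = 0.923), and its sign changed with the scaling (0.23 unscaled). The dimmer probe set of Fosl2 differed by -0.50 (SE 0.31, adjusted p over all probe sets = 0.315). Fosb encodes a Fos protein best known in neurons and bone. Its deposited intensity, 1.66 to 20.8 on high-fat arrays and 7.85 to 17.2 on chow arrays, lay below or near the array medians. The log2 levels were 3.52, 4.09, 4.25, 1.11 and 3.17 on high-fat arrays and 3.17, 2.84, 3.43, 3.85 and 4.16 on chow arrays. High-fat array 4 alone was far below the rest, and without it the difference of -0.26 (SE 0.58, limma adjusted p = 0.786) became 0.27 (adjusted p = 0.683, with 0.508 to 0.933 over its 23 alternatives).

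None of the 3 Jun genes passed the test. Jun encodes the main inducible partner of Fos. Its brighter probe set had log2 levels of 9.21, 9.07, 9.44, 9.21 and 9.36 on high-fat arrays and 8.75, 8.83, 9.75, 9.29 and 9.38 on chow arrays. The chow arrays spanned a wider range, with arrays 1 and 2 at the bottom and array 3 at the top. The difference was 0.06 (SE 0.18, 95% interval -0.35 to 0.46, limma adjusted p = 0.848), and the other probe set of Jun differed by -0.05 (SE 0.17). With equal array medians Jun was higher by 0.50 (adjusted p = 0.0478), and without chow arrays 1 and 2 it differed by -0.22 (adjusted p = 0.203). Over its 24 alternatives the adjusted p of Jun ran from 0.0478 to 0.987, and both signs occurred.

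Junb, which encodes an AP-1 subunit that often restrains Jun, had log2 levels of 6.74, 6.84, 7.05, 6.53 and 6.86 on the high-fat diet, against 6.46, 7.04, 6.94, 6.06 and 6.02 on chow. Chow arrays 4 and 5 were the lowest, and chow arrays 2 and 3 lay within the high-fat range. It differed by 0.30 (SE 0.23, 95% interval -0.20 to 0.80, limma adjusted p = 0.371). The difference was 0.79 without chow arrays 1, 2 and 3 (adjusted p = 0.00563) and 1.17 with the epididymis and testis covariate (adjusted p = 0.0465), where its 24 alternatives reached up to an adjusted p of 0.601. Jund encodes the Jun protein that many resting cells express steadily. Its brighter probe set ran from 9.34 to 9.91 on the high-fat diet and from 9.29 to 10.08 on chow and differed by -0.06 (SE 0.18, 95% interval -0.45 to 0.34, limma adjusted p = 0.854), with its sign changing with the scaling (0.27 unscaled). Its dim probe set differed by -0.50 (SE 0.45, adjusted p over all probe sets = 0.501).

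The level of Fos was also set against those of the Jun genes, its partners, and of Fosl2, a gene of its own family. Within an array, the log2 level of Fos minus that of Jun was 0.85 to 1.50 on the high-fat diet and -2.24 to -1.30 on chow, a shift of 2.93 that a constant factor per array cannot move. The value for Fos minus Junb was 3.33 to 3.95 on the high-fat diet and -0.45 to 2.05 on chow, and that for Fos minus Jund was 0.23 to 1.21 on the high-fat diet and -3.49 to -1.35 on chow. In none of these pairs did the diets overlap. The value for Fos minus Fosl2 was 1.61 to 2.09 on the high-fat diet and -1.76 to -0.81 on chow. For Atf3 minus Jun it was -0.03 to 0.59 on the high-fat diet and -3.85 to -2.56 on chow. These pairs were chosen after the values were seen, levels of different probe sets are not comparable in themselves, and no test was made.

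Atf3 had the largest rise of the 10 genes. It encodes a bZIP protein induced by stress and by Toll-like receptor signals, which pairs with Jun proteins and represses many inflammatory genes. Its deposited intensity was 644, 733, 1347, 553 and 1119 on high-fat arrays 1 to 5, against 70.1, 71.7, 64.9, 67.7 and 38.9 on chow arrays 1 to 5. High-fat arrays 3 and 5 were the brightest, as they were for Fos, and the 5 chow arrays were all far lower. In normalised log2 levels the means were 9.55 ± 0.38 on the high-fat diet and 5.95 ± 0.27 on chow (SD, n = 5 each). Atf3 rose by 3.60 (SE 0.20, 95% interval 3.16 to 4.03, limma adjusted p = 1.69e-06), the gene with the 20th smallest p of 18193, and had the 117th largest rise. The rise was 3.78 without chow arrays 1 and 2, and over all 24 alternatives it ran from 3.29 to 3.94.

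Egr1, a zinc finger factor induced by many of the same signals as Fos, did not pass the test. It had log2 levels of 9.32, 9.48, 9.79, 9.29 and 9.57 on the high-fat diet, against 9.12, 9.02, 8.91, 9.56 and 9.42 on chow. The high-fat group was at or above most chow arrays, but chow arrays 4 and 5 lay within it. The difference was 0.28 (SE 0.15, 95% interval -0.05 to 0.62, limma adjusted p = 0.200). Egr1 was higher by 0.72 with equal array medians (adjusted p = 0.00731) and differed by -0.0041 without chow arrays 1, 2 and 3 (adjusted p = 0.988), which were the lowest and highest adjusted p over its 24 alternatives. The within-array log2 level of Fos minus Egr1 was 0.75 to 1.23 on the high-fat diet and -2.43 to -1.03 on chow.

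Nr4a1 encodes Nur77, an orphan nuclear receptor of the immediate early class that is known in fat to respond to adrenergic signals. Its deposited intensity was 63.1, 89.8, 106, 62.7 and 92.4 on high-fat arrays 1 to 5, against 119, 280, 335, 200 and 156 on chow arrays 1 to 5. Chow array 3 was the highest, and chow array 1 was the closest to the high-fat group. The mean log2 level was 6.29 ± 0.22 on the high-fat diet and 7.78 ± 0.61 on chow (SD, n = 5 each). Nr4a1 fell by 1.49 on the log2 scale (SE 0.27, limma adjusted p = 0.00235). The fall was 1.63 without chow arrays 1 and 2 (adjusted p = 0.000404). With the epididymis and testis covariate the difference was -0.67 and no longer passed (limma adjusted p = 0.379, the largest over its 24 alternatives). Its SE was then 0.43, since the covariate does not overlap between the diets.

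Ier3 encodes a stress-induced protein also called IEX-1, which acts on cell survival and on ERK signalling. Its deposited intensity was 76.3, 100.4, 123, 75.6 and 84.9 on high-fat arrays 1 to 5, against 446, 582, 195, 164 and 147 on chow arrays 1 to 5. Chow arrays 1 and 2 were more than 2 times as bright as any other array, and all 3 remaining chow arrays were also above all high-fat arrays. Mean log2 levels were 6.44 ± 0.19 on the high-fat diet and 8.17 ± 0.92 on chow (SD, n = 5 each), and Ier3 fell by 1.73 (SE 0.37, limma adjusted p = 0.00634). The fall was smaller without chow arrays 1 and 2 (-1.08, limma adjusted p = 0.000440). With the epididymis and testis covariate the difference was -0.64 and did not pass (limma adjusted p = 0.574, the largest over its 24 alternatives). The SE was then 0.61, as that covariate does not overlap between the diets.

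**Figure D2:**
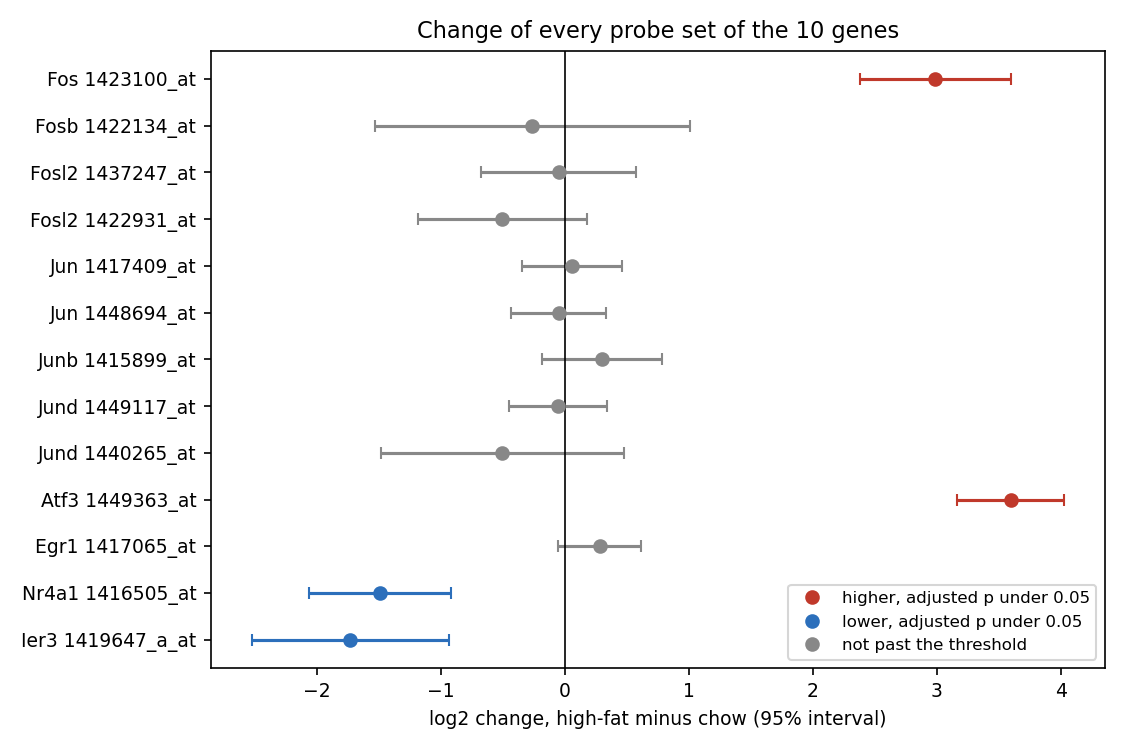
Log2 change of each of the 13 probe sets of the 10 genes, high-fat minus chow (horizontal axis), with its 95% interval from the limma fit over all probe sets. Fos and Atf3 (red) lie well to the right of 0, Nr4a1 and Ier3 (blue) to the left, and the 9 grey intervals of the other probe sets all cross 0.

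Fitted over all 45037 probe sets other than controls, 2 of the 13 probe sets of these genes were higher and 2 lower, where 17.9% of all probe sets passed (9.89% higher and 8.00% lower). Each of the 4 genes that moved has 1 probe set, so no second probe set was at hand to compare. For Jun, Jund and Fosl2 neither of the paired probe sets passed.

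The spread between mice was uneven across the array. In 8 of these 10 genes the SD over the 5 chow arrays was larger than that over the 5 high-fat arrays, the exceptions being Fosb and Atf3. Ier3 had the widest chow group, with an SD of 0.92 against 0.19 on the high-fat diet. Jun had an SD of 0.14 on the high-fat diet and 0.42 on chow. The same held for 76.8% of all genes on the array, and no test was made of these spreads.

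Markers of other cells ran beside the genes that moved. The summed intensity of the 10 macrophage markers was 22071 to 31383 on the high-fat diet and 2301 to 5358 on chow, a gap in the direction of Fos and Atf3. Cd68, the lysosomal glycoprotein of macrophages, averaged a log2 level of 11.64 on the high-fat diet and 6.47 on chow. Within the high-fat group Atf3 and the macrophage mean were both highest on arrays 3 and 5 and lowest on array 1 (macrophage means of 10.77, 10.89 and 10.20). The stromal progenitor mean was also highest and lowest on these arrays (9.62, 9.78 and 8.75). Its high-fat values all lay above its chow values (8.09 to 8.71). Summed lymphocyte markers had a gap in the direction of Fos and Atf3 too, at 3068 to 5148 on the high-fat diet and 379 to 1636 on chow. Fos was lowest in chow arrays 1 and 2, where the macrophage mean was also lowest (7.00 and 7.02). On those arrays the adipocyte, endothelial and stromal progenitor means were the lowest of the chow group as well. The epithelial and smooth muscle means were the highest there. Within the chow group Atf3 was lowest in arrays 4 and 5, where the macrophage mean was the highest of that group (7.67 and 8.06). For the 8 epithelial markers the summed intensity was 215 to 339 on the high-fat diet and 1166 to 14149 on chow, a gap in the direction of Nr4a1 and Ier3. The tight junction gene Cldn7 averaged a log2 level of only 0.81 on the high-fat diet and 8.63 on chow. Like the epithelial markers, Ier3 peaked on chow arrays 1 and 2, but Nr4a1 was lowest of its group in chow array 1. Other summed intensities had a gap in the same direction. Epididymis and testis markers ran from 308 to 689 on the high-fat diet and from 3637 to 54962 on chow. Smooth muscle markers ran from 2759 to 4292 and from 7290 to 36047. Nr4a1 was highest on chow arrays 3 and 2, which had the highest epididymis and testis means (9.82 and 11.52). The part of these cells in the changes was not tested.

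**Figure D3:**
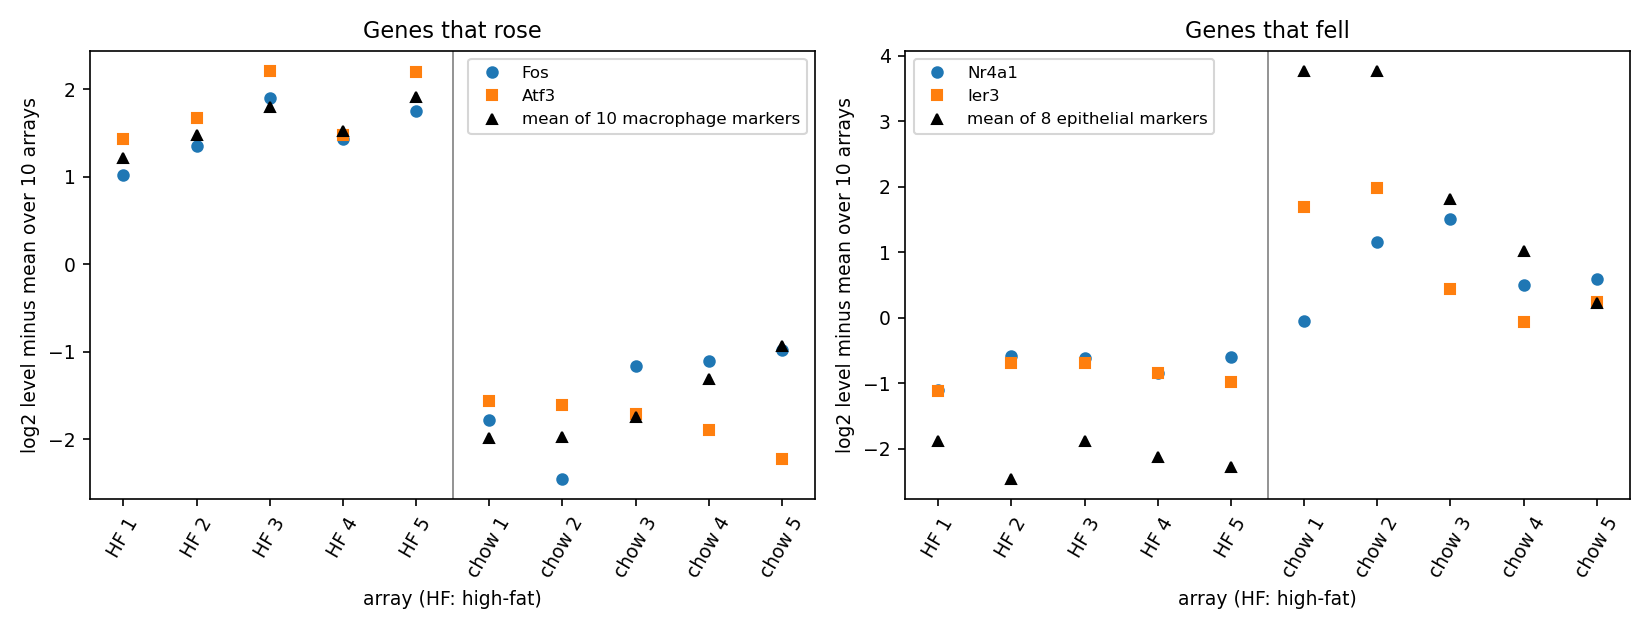
Log2 level minus its mean over the 10 arrays (vertical axis) on each array (horizontal axis, high-fat arrays left of the line, chow arrays right), for Fos and Atf3 with the mean of 10 macrophage markers (left), and for Nr4a1 and Ier3 with the mean of 8 epithelial markers (right). The macrophage mean is higher on all high-fat arrays as Fos and Atf3 are, while in chow arrays 4 and 5 Atf3 is lowest and the macrophage mean is the highest of the chow group. Chow array 1, among the highest in epithelial markers, is the lowest of its group in Nr4a1. Epididymis and testis markers and smooth muscle markers, whose sums were also lower on the high-fat diet, are not drawn. Nor are stromal progenitor markers, whose means were higher on all high-fat arrays, or lymphocyte markers, whose sums were.

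Profiles over the 10 arrays were compared by the root mean square difference of log2 levels, each gene first centred on its own mean, among genes brighter than the median gene. Nearest to Fos were Fermt3, which encodes the integrin activator kindlin-3 of blood cells (0.0937), Laptm5, a lysosomal membrane protein of leukocytes (0.158), Lipa, lysosomal acid lipase (0.201), Pik3r5, a regulatory subunit of PI3-kinase gamma (0.217), and Ptprc, the leukocyte antigen CD45 (0.228). These 5 genes changed by 2.83 to 3.17. Of the other 9 genes in the group, Atf3 was the nearest to Fos at 0.617, and the next, Egr1, was at 1.40. Around Jun were Tmod3, Rnf4, Raph1, Prmt3 and Sp3 (0.114 to 0.121), and around Egr1 were Nit2, Psmg3, Fam172a, Ccnc and Dmac1 (0.0904 to 0.135). Within the group Fosl2 was the nearest to Jun (0.258), and Ier3 and Nr4a1 were nearest to each other (0.741). A likeness over arrays that share the diet groups is a description of these arrays.

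The other bZIP genes that pair with or resemble Fos and Jun moved in part. Of 12 measured, 4 were higher, 1 was lower and 7 did not pass, with a median change of 0.33, where 12.9% of all genes were higher and 13.1% lower. Batf, an AP-1 factor of lymphocytes, rose by 3.04 (SE 0.65, limma adjusted p = 0.00634). Beside it, 3 of 9 lymphocyte markers were higher. The B cell gene Ighm rose by 2.35, the B cell receptor subunit Cd79b by 1.58 and the T cell gene Cd2 by 1.11. Cd79b and Cd2 were dim, and with 16 added to each value before the log their changes were 0.82 and 0.56. The other 6 did not pass, with the dim Cd79a at -1.72, Cd3e at 0.22 and Cd8a at 0.37. The part of lymphocytes in the change of Batf was not tested. Batf3, needed for a class of dendritic cells, rose by 1.92 (SE 0.30, adjusted p = 0.00108). Fosl1, which encodes Fra-1, averaged 4.80 ± 0.13 on the high-fat diet and 3.48 ± 0.79 on chow (SD, n = 5 each) and rose by 1.31 (limma adjusted p = 0.0250), a call that was lost without scaling (1.18, adjusted p = 0.0501). Maf, a large Maf factor expressed in macrophages and T cells, rose by 1.12 (adjusted p = 0.0345), with overlapping groups and a change of 0.57 without chow arrays 1 and 2. Both Batf and Fosl1 had low chow signals, and with 16 added to each value before the log the changes were 1.35 for Batf and 0.65 for Fosl1. Atf4, the effector of the integrated stress response, was the gene that fell, by 0.37 (adjusted p = 0.0492), is named after its value was seen, and did not pass with equal array medians (0.10, below the 0.21 of the median gene under that scaling, adjusted p = 0.550). In the fit without chow arrays 1 and 2, 5 of the list were higher and 4 lower (18.5% and 19.8% of all genes). With the covariate 2 were higher and 0 lower, where 711 of all 18193 genes were higher and 372 lower.

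Of 37 other immediate early genes measured, 5 were higher, 7 lower and 25 did not pass, with a median change of -0.26. That is 32.4% of the list past the threshold, near the 25.9% of all genes. Nr4a3, the Nr4a paralog Nor1, averaged 4.52 ± 0.30 on the high-fat diet and 7.03 ± 1.58 on chow and fell by 2.51 (limma adjusted p = 0.0142, n = 5 each). Its groups overlapped, with chow array 2 at 4.61 and the high-fat arrays at 4.07 to 4.83. The third paralog Nr4a2, named for its family after the values were seen, fell by 0.73 (limma adjusted p = 0.0420), also with overlapping groups. All 3 Nr4a genes thus fell, although Nr4a2 differed by -0.58 and did not pass with equal array medians (adjusted p = 0.0779), and none of the 3 passed with the covariate. Ccn2, the matricellular connective tissue growth factor, fell by 1.46 (SE 0.28, adjusted p = 0.00333). The polo-like kinase gene Plk2 rose by 1.69 (SE 0.26, limma adjusted p = 0.00103). Egr3 rose by 1.52 (SE 0.39, limma adjusted p = 0.0160), with overlapping groups, and by 1.005 without chow arrays 1 and 2. Egr2, named after its values were seen, ran from 8.16 to 9.12 on the high-fat diet and from 5.39 to 11.07 on chow, with chow array 2 the highest and chow arrays 4 and 5 the lowest. It did not pass over all 10 arrays (adjusted p = 0.535) and was higher by 2.10 without chow arrays 1 and 2 (adjusted p = 0.0284). Of this list 5 were higher and 17 lower without those arrays, where 19.8% of all genes and all 8 endothelial markers were lower. It had 11 higher and 5 lower with equal array medians, where 4420 of all 18193 genes were higher and 1440 lower. With the covariate it had 2 higher and 1 lower, where 711 of all genes were higher and 372 lower.

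Signalling genes upstream of the group were counted next. In the MAP kinase cascade to serum response factor, its cofactors and CREB, 6 of 20 measured genes were higher and 1 lower (12.9% and 13.1% of all genes), with a median change of 0.27. Map2k6, a kinase of p38, averaged 5.95 ± 0.29 on the high-fat diet and 4.95 ± 0.64 on chow (SD, n = 5 each, limma adjusted p = 0.0352). Mrtfa, an actin-linked cofactor of serum response factor, rose by 0.99 (adjusted p = 0.00266). Rps6ka3, the kinase RSK2, rose by 0.76 (adjusted p = 0.0162), and Mapk14, p38 alpha itself, by 0.66 (adjusted p = 0.00175). With the covariate 1 gene of the list was higher and 0 were lower, where 711 of all 18193 genes were higher and 372 lower. Of 10 MAP kinase phosphatases, which switch these kinases off, 3 were lower and 0 higher (1 higher at an unadjusted p under 0.05 in limma), with a median change of -0.13. The 30% past the threshold is near the 25.9% of all genes. Dusp4 fell by 1.85 (SE 0.30), Dusp6, the cytoplasmic ERK phosphatase, by 0.96 (SE 0.26), and Dusp16, a phosphatase of JNK, by 0.85 (SE 0.16). For these 3 genes the highest high-fat array was lower than the lowest chow array. Dusp6 differed by -0.51 with equal array medians and did not pass (adjusted p = 0.150). With the covariate 0 of the 10 phosphatases passed, beside the same 711 and 372 over all genes.

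Among 13 measured genes with well known AP-1 sites, 7 were higher and 1 lower, with a median change of 1.61. Over all genes 12.9% were higher and 13.1% lower, with a median change of -0.04. The collagenase gene Mmp13 rose by 5.20 (SE 0.64), the monocyte attractant Ccl2 by 4.62 (SE 0.39), the hyaluronan receptor Cd44 by 3.80 (SE 0.29) and the protease inhibitor Timp1 by 3.12 (SE 0.30). Mmp13 was near the floor on chow, and with 16 added to each value its change was 2.12. Ccnd1, named after its value was seen, was the gene that fell, by 0.71 (limma adjusted p = 0.0329). The 5 that did not pass were Plau (1.15), Il6 (0.71), Mmp9 (-0.17), Mt2 (-0.64) and Vegfa (-1.18). Several genes of this list are also expressed by macrophages, whose 10 markers had a median change of 3.43. Without chow arrays 1 and 2 the counts were 8 higher and 2 lower (18.5% and 19.8% of all genes). With the covariate they were 3 higher and 0 lower, where 711 of all 18193 genes were higher and 372 lower.

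**Figure D4:**
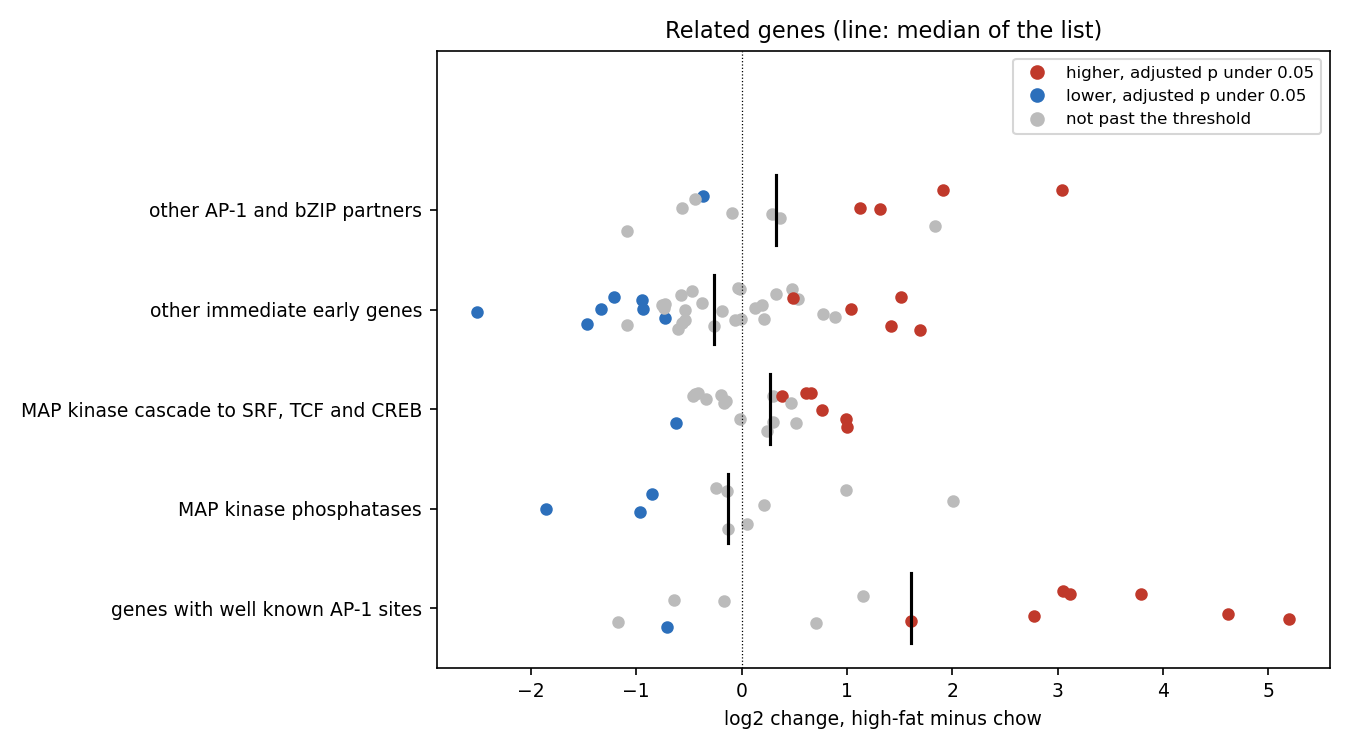
Log2 change, high-fat minus chow (horizontal axis), of the genes in 5 related lists (rows; the vertical scatter within a row carries no value), red for higher and blue for lower past the threshold, grey for not past it, with a black line at the median of each list. The list with well known AP-1 sites has its median at 1.61 and reaches 5.20, and the other 4 medians lie between -0.26 and 0.33.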

How the data were processed

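RNA of epididymal fat from 5 high-fat and 5 chow mice was measured on 1 array each. The authors deposited 1 linear intensity per probe set and array; neither the labels nor the table name the algorithm or any scaling, and no detection calls were used. Values below the 5th percentile over the table (0.658) were set to it, and all were log2 transformed and quantile normalised, since array medians differed by 0.613 on the log2 scale. Names came from the annotation of the platform: 34945 non-control probe sets had 1 symbol, 932 several, and 9224, controls included, were unnamed here. Symbols were updated through the Entrez ID, which was in the RefSeq table for 34741. The brightest probe set stood for a gene.

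Genes and probe sets were each tested over the whole array with limma 3.58.1 in R 4.3.3 (lmFit, eBayes with a trend, Benjamini-Hochberg), after a run on simulated data with known changes. Control ratios were tested by 2-sided exact permutation over 252 arrangements. Groups and replicate numbers came from the sample titles; labels say RNA came from each mouse, so that the error in each p-value is that among mice.

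The 10 genes and the gene lists were chosen with earlier results of these data known. The rule for names took every probe set of the 10 genes, up to 4 genes per list by size of change among those past the threshold, and the 5 nearest profiles to Fos, Jun and Egr1; the text names those of the lists its results turn on. Alternatives were no scaling, median centring, eBayes without a trend or robust, weights per array, a filter on dim genes, other probe set choices, a lower floor, 16 added before the log, the replicate block and leaving out 1 array at a time. Leaving out chow arrays 1 and 2, or 1, 2 and 3, and the epididymis and testis covariate were added with the data known. Promoter sequences are from RefSeq, GRCm38.p6.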

Additional observations from a re-analysis of the deposited data

Results flagged for a closer look

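The dimmer probe set of Fosl2 had 1 high-fat array far from the other 4: array 1 at a log2 level of 3.95, against 4.90 to 5.20 for the rest. The gap was 0.760 of the range of the group, above the limit of 0.71 for 5 values. Of 30 such groups of 5 examined, this was the 1 past the limit, and chance puts about 1 in 20 past it. The brighter Fosl2 probe set was also lowest in that array among the high-fat arrays, at 8.15.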

How the results depend on the processing

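Fos and Atf3 were higher and past the threshold under all 24 alternatives, with changes of 1.96 to 3.41 and 3.29 to 3.94. Nr4a1 (-1.70 to -0.67) and Ier3 (-1.97 to -0.64) were lower under all 24 and past the threshold in 23. The epididymis and testis covariate, which does not overlap between the diets and widened the SEs, was the exception for both. With that covariate 0 of the 10 genes and 0 of their probe sets were lower (limma; 3 genes higher and 0 lower at an unadjusted p under 0.05), and over all genes 711 were higher and 372 lower, against 2338 and 2379. Median centring gave 4 of the 10 genes higher, and 4420 genes higher and 1440 lower; the values as deposited gave 1491 lower, and leaving out chow arrays 1 and 2 gave 3596 lower.

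Signs changed for genes that had not passed. Fosl2 was at 0.23 as deposited and 0.37 centred. Jund was at 0.27 as deposited, 0.40 centred, 0.11 with array weights, 0.12 without chow arrays 1 and 2, 0.35 without chow arrays 1, 2 and 3, and 0.44 with the covariate. Jun was at -0.12 with array weights, -0.22 without the first 2 chow arrays, -0.075 without the first 3, and -0.11 with the covariate; Egr1 was at -0.0041 without 3 chow arrays and -0.17 with the covariate. With each array left out in turn Fosb ran from -0.51 to 0.27, Fosl2 from -0.24 to 0.19, Jun from -0.054 to 0.20 and Jund from -0.18 to 0.038. The cause was not tested. The replicate number as a block changed none of the 10 calls (limma, Fos 2.99, adjusted p = 0.000285, and Nr4a1 adjusted p = 0.00383), with 1898 genes higher and 1864 lower. Same-numbered arrays did not deviate together (correlations of -0.0201 to 0.0056), and the labels state no pairing. So few arrays cannot exclude that a number marks something shared. Fosb has no value with dim genes left out. Dim genes such as Fosb, with no detection calls, limit what can be said of their level.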
